A study of Mus musculus with 18 samples.

Results

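Mouse skin flaps that had lain over a D15L200 spacer were compared with flaps over a D15L100 spacer, 3 RNA-seq samples of each, 6 of the 18 samples in the series. The 6 were taken by their labels, and the comparison spans the largest difference in the L number (200 against 100) at the same D number (15). The spacers were printed meshes that differed in diameter and spacing, were laid under the flap, and stayed there until the skin was collected at day 7. The labels give D and L no unit and do not say which of them is the diameter. D15L150 flaps have the L number in between, and Control flaps were operated on without a spacer; both are used here for comparison, 3 samples each. The sources used here give no strain, sex or age, and do not say that the 3 samples of a group came from separate animals, so p-values measure the spread between these samples, which may be technical.

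Skin is renewed by basal keratinocytes on a laminin-rich basement membrane, whose daughters move up, stop dividing and build the cornified envelope, a shell of crosslinked proteins coated with lipids. When skin is wounded or raised, keratinocytes at the edge switch to a different programme with keratins 6, 16 and 17, small proline-rich proteins, the connexin Gjb2 and the Lce3 group of late cornified envelope proteins. Mouse skin also carries a thin sheet of striated muscle beneath the fat, so a skin sample can hold epidermis, dermis, fat and muscle.

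No gene passed the test of D15L200 against D15L100 flaps once p-values were adjusted over the 13078 genes tested. Levels are given as FPKM, counted fragments scaled to gene length and to the sample's total count, and differences are D15L200 minus D15L100 on the log2(FPKM + 1) scale, which understates the change of genes near 0. A gene was tested if it reached 1 FPKM in at least 3 of the 18 samples. The test was limma over all 18 samples with Benjamini-Hochberg adjustment at 0.05, and it called 0 genes, a percentage called of 0, with a smallest adjusted p of 0.849. The values below are therefore measured differences that did not pass the test, and every gene named has an adjusted p of 0.849 in limma's fit, apart from Kit, S100a8, Il1b and Col1a1 (0.920, 0.952, 0.990 and 0.997).

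At unadjusted p under 0.05 there were 388 genes higher in D15L200 flaps (2.97% of those tested) and 290 lower (2.22%), 678 in all, where 654 would lie below that p if no gene differed. All 3 D15L200 samples lay above all 3 D15L100 samples for 586 genes (4.48%), and all 3 lay below for 1038 genes (7.94%). The median difference over all genes was -0.02, with 5834 differences positive and 7244 negative. Among the 311 genes that differed by more than 1 on the log2 scale, 195 were higher and 116 lower in D15L200 flaps. The precision was moderate: the median standard error was 0.172, and for 10749 genes (82.2%) the 95% interval of the difference lay wholly between -1 and 1, so for these genes a difference beyond 1 lies outside the interval in either direction.

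**Figure D1:**
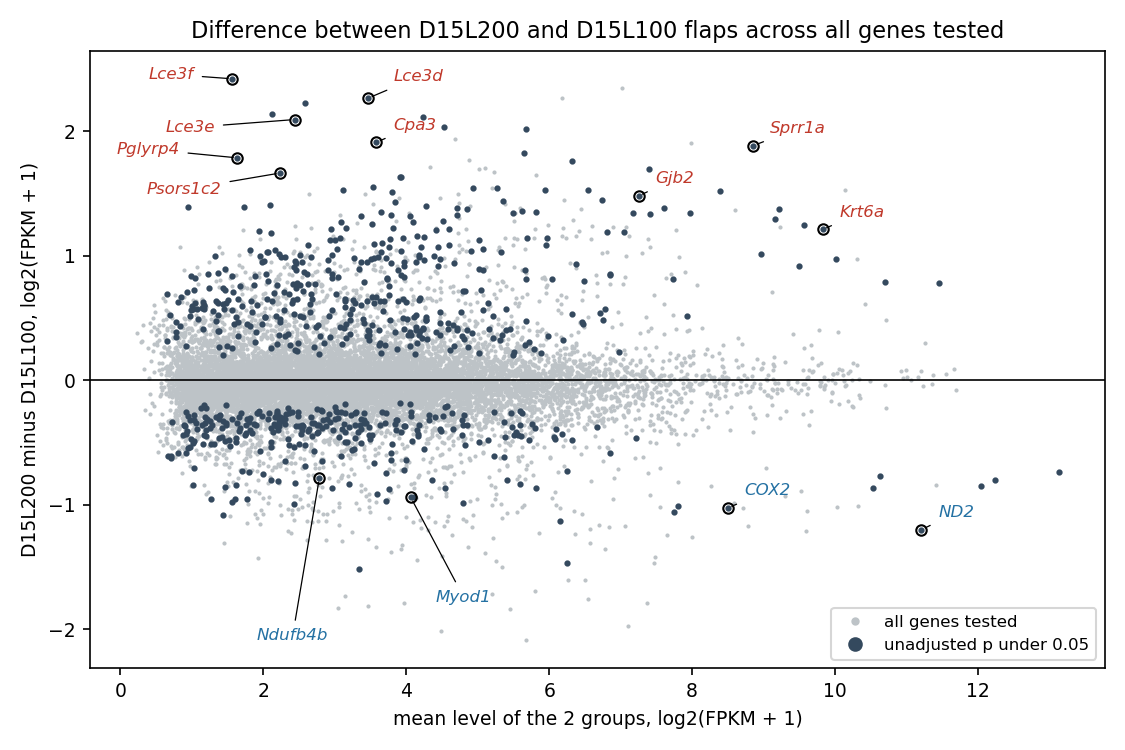
Difference between D15L200 and D15L100 flaps (log2(FPKM + 1), y axis) against the mean level of the 2 groups (x axis) for the 13078 genes tested, with the 678 genes at unadjusted p under 0.05 in dark. Lce3f, Lce3d and Lce3e lie near the top at low to middle levels, and the mitochondrial ND2 and COX2 lie below -1 at high levels.

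Samples within a group were not alike. D15L200 sample 3 correlated with its group mates at r = 0.946 and 0.959 over the genes tested, while samples 1 and 2 correlated at 0.987. D15L100 sample 2 correlated at 0.992 with D15L200 sample 2, above its 0.975 and 0.956 with its own group mates. D15L100 sample 3 had the lowest level of cornification genes and the highest level of muscle genes of the 6. D15L200 sample 3 had 678 FPKM of Il1b, the neutrophil and macrophage cytokine, against 32.7 and 44.3 in D15L200 samples 1 and 2, and against 163, 108 and 90.4 in the D15L100 samples; Il1b was chosen after its values were seen. D15L200 sample 3 and D15L100 sample 3 are together called the third samples. Where leaving out 1 sample, or the third samples together, turned the sign of a list median given here or moved it by more than 1.5 times, the changed median or its range is given beside it. Recovered depth was 28422344 to 35327357 fragments over the 18 samples.

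The 3 genes whose promoters are printed here, Lce3d, Lce3e and Lce3f, were the late cornified envelope genes with the smallest unadjusted p. They code for small proteins that are crosslinked into the cornified envelope and lie side by side on chromosome 3, with Lce3f at 92992217 to 92993426 in GRCm38. The bases are the 120 before each gene's start, from RefSeq's GRCm38.p6 table, on the plus strand. Capitals mark the stretches of at least 12 bases that all 3 windows hold.
Lce3d, chr3:92957270-92957389: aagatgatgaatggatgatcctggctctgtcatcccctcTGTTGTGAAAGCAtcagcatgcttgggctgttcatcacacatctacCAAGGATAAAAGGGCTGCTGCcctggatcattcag
Lce3e, chr3:92966941-92967060: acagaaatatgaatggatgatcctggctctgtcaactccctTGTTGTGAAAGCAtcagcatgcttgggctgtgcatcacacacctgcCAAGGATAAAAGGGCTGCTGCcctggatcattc
Lce3f, chr3:92992097-92992216: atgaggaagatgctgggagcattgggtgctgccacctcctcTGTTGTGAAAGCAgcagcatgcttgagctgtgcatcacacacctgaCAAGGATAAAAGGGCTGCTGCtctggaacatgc
The stretch TGTTGTGAAAGCA begins 81, 79 and 79 bases before the start of Lce3d, Lce3e and Lce3f. The longer CAAGGATAAAAGGGCTGCTGC begins 35, 33 and 33 bases before it. Searched on both strands, each stretch is in 3 of the 32851 promoter windows of 300 bases in the table (0.00913%), those of these 3 genes, and in none of the windows of Lce3a, Lce3b and Lce3c. This describes the likeness of the 3 sequences and does not locate a binding site. Genes this alike may share fragments, and how the counting split them is not given in the sources used here.

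All 6 Lce3 genes, Lce3a to Lce3f, had every D15L200 sample above every D15L100 sample (4.48% of all genes did), with differences of 2.04 to 2.42 and a median of 2.18. Lce3f, the gene with the smallest unadjusted p of all (0.00032), had 6.89, 8.01 and 3.50 FPKM in D15L200 flaps and 0.0943, 0.567 and 0.213 FPKM in D15L100 flaps. Its difference was 2.42 ± 0.51 (SE; 95% interval 1.32 to 3.52). All 3 D15L100 samples were below 1 FPKM, and the lowest D15L200 sample was well above them. Lce3d had 18.6, 20.5 and 32.9 FPKM in D15L200 flaps and 4.47, 4.38 and 3.35 FPKM in D15L100 flaps, a difference of 2.27 ± 0.62. Lce3e had 10.1, 11.8 and 8.91 FPKM in D15L200 flaps and 1.59, 1.40 and 1.91 FPKM in D15L100 flaps, a difference of 2.09 ± 0.55 (SE). In both genes the D15L100 samples lay close together and far below the other group.

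Lce3c, the most abundant of the group, had 35.5, 38.3 and 70.2 FPKM in D15L200 flaps and 22.4, 11.8 and 3.92 FPKM in D15L100 flaps, so that here the D15L100 samples themselves spread widely. Lce3b had 10.7, 10.1 and 15.7 FPKM in D15L200 flaps and 1.92, 1.67 and 1.71 FPKM in D15L100 flaps. Lce3a had 8.17, 6.72 and 9.68 FPKM in D15L200 flaps and 1.18, 2.01 and 0.349 FPKM in D15L100 flaps; Lce3a and Lce3b were chosen after their values were seen. Without the third samples the differences of Lce3d, Lce3e and Lce3f were 1.92, 2.26 and 2.69, while that of Lce3c was 1.13 in place of 2.04. Bulk samples cannot tell fewer cells of a type from less RNA per cell, here or in any result that follows.

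In D15L150 flaps Lce3f had 4.63, 4.04 and 19.8 FPKM, and Lce3d had 13.6, 7.89 and 55.7 FPKM. D15L150 sample 3 was thus above every D15L200 sample for both genes, and the other two lay between the groups for Lce3d. In Control flaps Lce3d had 4.19, 4.83 and 3.91 FPKM, in the same range as in D15L100 flaps.

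The neighbouring families of the epidermal differentiation complex on chromosome 3 were also higher in D15L200 flaps, with more overlap. The 14 Lce1 genes, which belong to the undisturbed cornified layer, all had positive differences, of 1.02 to 1.70. Only 3 of them had samples that did not overlap, and 0 had an unadjusted p under 0.05. The 12 Sprr1 and Sprr2 genes, small proline-rich precursors of the envelope, all had positive differences with a median of 1.51. Of these, 6 had no overlap and 7 had an unadjusted p under 0.05. Over all genes tested 4.48% were higher without overlap and 2.97% were higher at that p. The counts for both families were made after the values were seen. Sprr1a had 801, 667 and 1320.4 FPKM in D15L200 flaps and 299, 527 and 87.8 FPKM in D15L100 flaps, a difference of 1.89 ± 0.56 (SE) that was 0.88 without the third samples. Pglyrp4, a peptidoglycan recognition protein encoded on the same chromosome, had 8.26, 6.05 and 1.95 FPKM in D15L200 flaps and 0.479, 1.72 and 0.163 FPKM in D15L100 flaps, a difference of 1.79 ± 0.49.

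**Figure D2:**
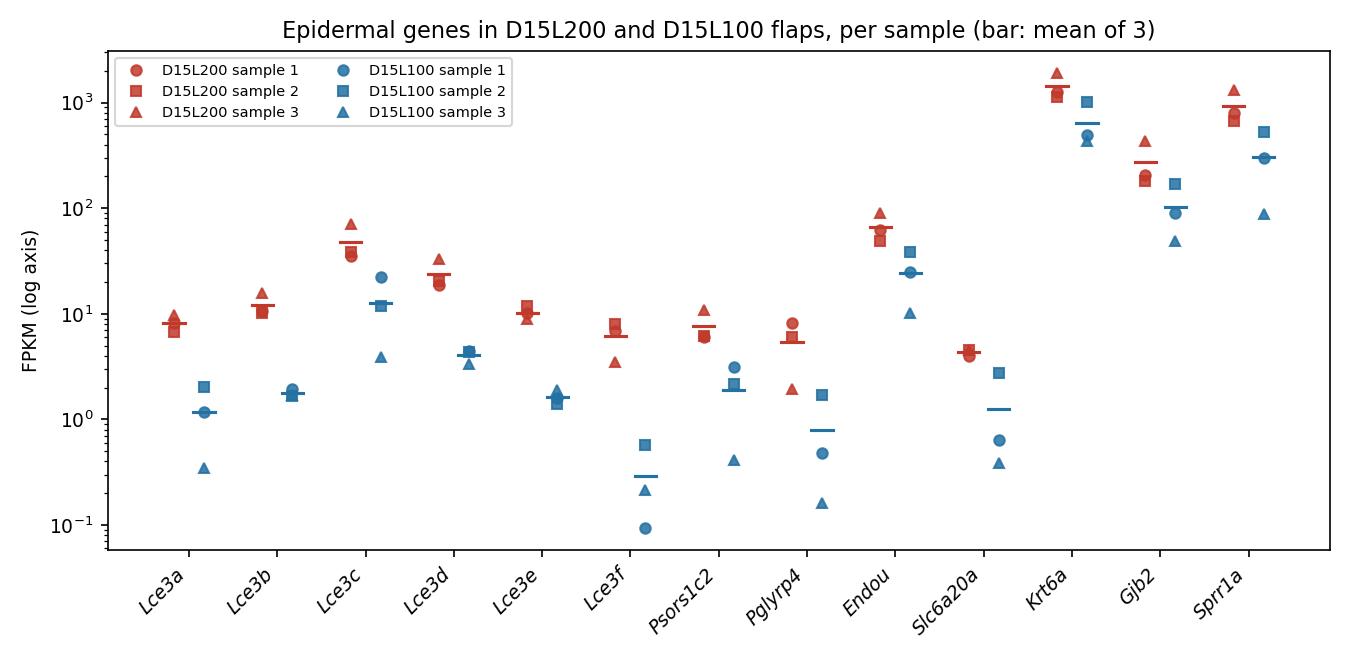
FPKM per sample (log axis) of 13 epidermal genes, D15L200 left and D15L100 right of each tick, with a bar at the mean of 3 samples. For each gene the lowest D15L200 sample lies above the highest D15L100 sample, and most of these genes were named on that condition. The gap is wide for Lce3b, Lce3d, Lce3e and Lce3f. It is narrow for Krt6a, Gjb2 and Sprr1a, where D15L100 sample 2 comes close.

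The list of suprabasal and cornified envelope genes, the late products of keratinocyte differentiation, had the highest median of the 48 lists, 1.15 over 26 genes tested. All 26 differences were positive, 10 had an unadjusted p under 0.05 and 10 had no overlap, and 0 passed the adjusted test. Over all genes tested 2.97% were higher at that p and 4.48% were higher without overlap. The same shares apply to the counts of higher genes in the lists that follow. Genes of a list can vary together within a sample, so members of 1 sign are not separate observations. The list's level, its mean log2(FPKM + 1), was 7.03, 6.66 and 6.79 in D15L200 flaps and 6.28, 6.30 and 4.21 in D15L100 flaps. The first 2 D15L100 samples were thus a little below the D15L200 samples and the third far below. Without D15L100 sample 3 the median was 0.57, and without the third samples it was 0.55. Tgm1, the transglutaminase that crosslinks the envelope, had 25.5, 25.7 and 46.6 FPKM in D15L200 flaps and 14.7, 21.7 and 6.66 FPKM in D15L100 flaps (difference 1.21 ± 0.39). Dsg1b, a desmoglein of the upper layers, had a difference of 1.04 ± 0.37. Krt1, the keratin of differentiating cells, was 2187, 1913 and 1675 FPKM in D15L200 flaps and 1068, 1295 and 211 FPKM in D15L100 flaps; it was chosen after its values were seen, and the interval of its difference, -0.67 to 3.72, includes 0.

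Wound keratins and junction genes followed the same order. In the list of wound-activated keratinocyte genes 14 of 15 differences were positive, 8 had an unadjusted p under 0.05, 7 had no overlap, and the median was 0.98. Krt6a, the keratin that epidermis makes after injury, had 1254, 1119 and 1885 FPKM in D15L200 flaps and 488, 1006 and 432 FPKM in D15L100 flaps, a difference of 1.21 ± 0.33 (SE; 95% interval 0.50 to 1.92). The gap between the groups was that between 1119 FPKM in D15L200 sample 2 and 1006 FPKM in D15L100 sample 2. Gjb2, connexin 26, had 204, 182 and 437 FPKM in D15L200 flaps and 89.1, 168 and 48.8 FPKM in D15L100 flaps, a difference of 1.48 ± 0.42. Its partner Gjb6, connexin 30, had 29.7, 27.7 and 56.4 FPKM in D15L200 flaps and 16.7, 23.5 and 8.36 FPKM in D15L100 flaps. For both connexins D15L200 sample 3 was the highest and D15L100 sample 3 the lowest. Without the third samples the differences were 0.76 for Krt6a, 0.65 for Gjb2 and 0.51 for Gjb6, and the list's median was 0.44. Sprr1b had a difference of 1.52 ± 0.51, and 0.53 without the third samples.

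The remaining genes named for the smallest unadjusted p among those higher in D15L200 flaps without overlap were in part epidermal. Psors1c2, a gene of the psoriasis susceptibility region expressed in differentiating epidermis, had 6.01, 6.19 and 10.7 FPKM in D15L200 flaps and 3.15, 2.16 and 0.416 FPKM in D15L100 flaps, a difference of 1.67 ± 0.42. Endou, a secreted endoribonuclease, had 61.9, 49.2 and 89.0 FPKM in D15L200 flaps and 24.98, 38.2 and 10.2 FPKM in D15L100 flaps, a difference of 1.54 ± 0.42. Slc6a20a, a transporter of proline and other imino acids, had 3.99, 4.55 and 4.55 FPKM in D15L200 flaps and 0.633, 2.75 and 0.384 FPKM in D15L100 flaps, a difference of 1.39 ± 0.31. Slc6a20a was narrow in D15L200 flaps and had 1 D15L100 sample, the second, set apart from the other two. Fam83a, a scaffold of growth factor signalling, differed by 1.03 ± 0.27, and Rhod, an endosomal small GTPase, by 0.72 ± 0.20. Lpin3, a phosphatidate phosphatase, differed by 0.42 ± 0.11, Plcd1, a phospholipase C, by 0.64 ± 0.18, Ptgfrn, a membrane protein partner of tetraspanins, by 0.40 ± 0.11, and Bloc1s3, a subunit of a complex for lysosome-related organelles, by 0.42 ± 0.12. These last 4 differences were small. The samples of all genes in this paragraph did not overlap, which was the condition for naming them.

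Barrier genes were placed alike. All 15 genes of the barrier lipid list had positive differences with a median of 0.97; 8 had an unadjusted p under 0.05 and 7 no overlap. Degs2, which makes phytoceramide, had 10.5, 11.7 and 20.8 FPKM in D15L200 flaps and 5.92, 7.41 and 1.27 FPKM in D15L100 flaps, a difference of 1.53 ± 0.46. Alox12b, the lipoxygenase that lets lipids bind the envelope, had 26.9, 21.6 and 28.3 FPKM in D15L200 flaps and 12.9, 15.7 and 1.68 FPKM in D15L100 flaps. Abca12, the lipid transporter of lamellar granules, and Elovl1, a fatty acid elongase, differed by 1.22 ± 0.46 and 0.62 ± 0.23, and in both D15L100 sample 2 overlapped the other group. All 13 genes of the list of kallikrein proteases, which shed corneocytes, and their inhibitors had positive differences with a median of 0.87, 3 at an unadjusted p under 0.05. Klk10 had 157, 66.0 and 101 FPKM in D15L200 flaps and 19.4, 74.1 and 9.60 FPKM in D15L100 flaps, so D15L100 sample 2 lay inside the D15L200 range. Klk9 differed by 1.35 ± 0.54 without overlap, and Spink5, the inhibitor of these proteases, by 1.35 ± 0.58 with overlap. Without D15L100 sample 3 the medians were 0.41 for barrier lipids and 0.45 for kallikreins, and without the third samples they were 0.45 and 0.50.

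Genes of the deepest epidermal layer had a median of 0.66 in the basal keratinocyte list, with 11 of 12 differences positive and 4 at an unadjusted p under 0.05. The median was 0.58 without the third samples and 0.36 without D15L100 sample 1. Lamb3, a laminin chain of the basement membrane, had 22.0, 20.3 and 45.5 FPKM in D15L200 flaps and 7.41, 18.8 and 11.5 FPKM in D15L100 flaps, a difference of 1.15 ± 0.36. Lama3, another such chain, differed by 1.21 ± 0.38, and in both genes D15L200 sample 3 was the highest and D15L100 sample 2 the highest of its group. Krt14 had 3892, 2717 and 4651 FPKM in D15L200 flaps and 2061, 2512 and 1881 FPKM in D15L100 flaps. The median of the 25 proliferation genes was -0.03, and -0.17 to 0.09 with 1 sample left out; 0 had an unadjusted p under 0.05.

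Epidermal transcription factors had a median of 0.59 over 28 genes, 25 of them positive, 9 at an unadjusted p under 0.05 and 8 without overlap. Without D15L100 sample 3 the median was 0.39, and without the third samples it was 0.31. Grhl3, which drives barrier formation and wound closure, had 19.2, 15.9 and 37.7 FPKM in D15L200 flaps and 8.70, 13.5 and 3.76 FPKM in D15L100 flaps, a difference of 1.44 ± 0.43. Hopx, a homeodomain cofactor of late differentiation, differed by 1.03 ± 0.34, and Ovol1, a zinc finger repressor that takes cells out of the cycle, by 0.99 ± 0.35. Klf5 overlapped through D15L100 sample 2, with 22.8, 18.3 and 21.3 FPKM in D15L200 flaps and 6.93, 20.8 and 7.20 FPKM in D15L100 flaps. Foxn1, a factor of keratinocyte differentiation and hair, was low, at 1.38, 1.24 and 1.44 FPKM in D15L200 flaps and 0.523, 1.24 and 0.309 FPKM in D15L100 flaps. The ERBB list of epidermal growth factor ligands and receptors had a median of 0.58 over 10 genes; Erbb3 and Tgfa differed by 0.67 ± 0.29 and 0.89 ± 0.40, each with overlap. That median was 0.36 without D15L200 sample 3, D15L100 sample 1 or D15L100 sample 3, each left out alone, and 0.34 without the third samples.

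Secreted defence and signal peptides of keratinocytes were less even. Il36g, an interleukin 1 family alarmin, had 48.7, 37.6 and 56.7 FPKM in D15L200 flaps and 24.4, 43.1 and 8.51 FPKM in D15L100 flaps. Defb4, a beta-defensin, had 2.04, 0.718 and 4.80 FPKM in D15L200 flaps and 0, 0.576 and 0.0722 FPKM in D15L100 flaps, a difference of 1.39 ± 0.40 at values near the lower limit of the table. The antimicrobial and acute phase list had a median of 0.42 over 17 genes. With 1 sample left out it ran between 0.05, without D15L200 sample 3, and 0.70, without D15L200 sample 2, and it was -0.10 without the third samples. Sebaceous gland genes had a median of 1.02 over 13 genes, but 0 had an unadjusted p under 0.05, and the median was 0.12 without D15L100 sample 3, 1.63 without D15L100 sample 2 and 0.26 without the third samples. Their level was 5.31, 4.73 and 4.25 in D15L200 flaps and 4.51, 4.82 and 2.10 in D15L100 flaps, so the third D15L100 sample stood alone.

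Mast cell genes were higher in D15L200 flaps with and without the third samples. Their median was 1.07 over 8 genes with all 6 samples and 1.07 without those. All 8 differences were positive, but only 2 had an unadjusted p under 0.05 and only 1 had no overlap. The level was 3.58, 3.50 and 3.85 in D15L200 flaps and 2.27, 3.45 and 2.15 in D15L100 flaps. D15L100 sample 2 lay just under the D15L200 samples, and D15L100 samples 1 and 3 far under. Without the third samples the difference in level thus rested mainly on D15L100 sample 1. Tpsb2, a tryptase, had 26.7, 24.5 and 17.3 FPKM in D15L200 flaps and 4.37, 19.2 and 4.20 FPKM in D15L100 flaps. Cpa3, the mast cell carboxypeptidase, had 27.2, 23.7 and 17.0 FPKM in D15L200 flaps and 2.35, 20.0 and 2.34 FPKM in D15L100 flaps, a difference of 1.91 ± 0.86. In both Tpsb2 and Cpa3 the groups overlapped, with D15L100 sample 2 above D15L200 sample 3. Mcpt4 and Cma1, the chymases, differed by 1.94 ± 0.93 and 1.71 ± 0.83. Kit, the stem cell factor receptor that mast cells share with melanocytes, was 1.91, 1.86 and 3.35 FPKM in D15L200 flaps and 1.55, 1.74 and 2.00 FPKM in D15L100 flaps; it was chosen after its values were seen. Without D15L100 sample 2 the list's median was 1.58. It was 1.71 over genes with a mean FPKM of at least 5, and 1.61 with voom on recovered fragments. Ccl21a, the chemokine of lymphatic vessels, had 45.5, 39.1 and 53.6 FPKM in D15L200 flaps and 17.3, 28.7 and 9.64 FPKM in D15L100 flaps, a difference of 1.38 ± 0.62, while the lymphatic list as a whole had a median of 0.10 over 6 genes, which ran between 0.02, without D15L100 sample 1, and 0.40, without D15L200 sample 3.

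Inflammatory lists turned on 1 sample. The neutrophil list had a level of 4.03, 4.44 and 6.75 in D15L200 flaps and 4.83, 4.88 and 4.54 in D15L100 flaps: the first 2 D15L200 samples were the lowest of the 6 and the third the highest by far. Its median difference was 0.30 with all samples and -0.39 without D15L200 sample 3. The inflammatory cytokine list, at 0.27, the immediate early gene list, at 0.18, and the glycolysis and hypoxia list, at 0.20, were -0.15, -0.37 and -0.11 without that sample. These were the lowest medians with 1 sample left out; the highest were 0.81, 0.66, 0.47 and 0.45 for the 4 lists, each without D15L200 sample 1. S100a8, a neutrophil and keratinocyte alarmin, had 711, 496 and 2890.1 FPKM in D15L200 flaps and 1036, 780 and 543 FPKM in D15L100 flaps, chosen after its values were seen. The part that this sample's inflammatory genes have in the epidermal differences was not tested. Without D15L200 sample 3 the suprabasal median was 1.27, the wound keratinocyte median 0.84 and the antimicrobial and acute phase median 0.05.

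**Figure D3:**
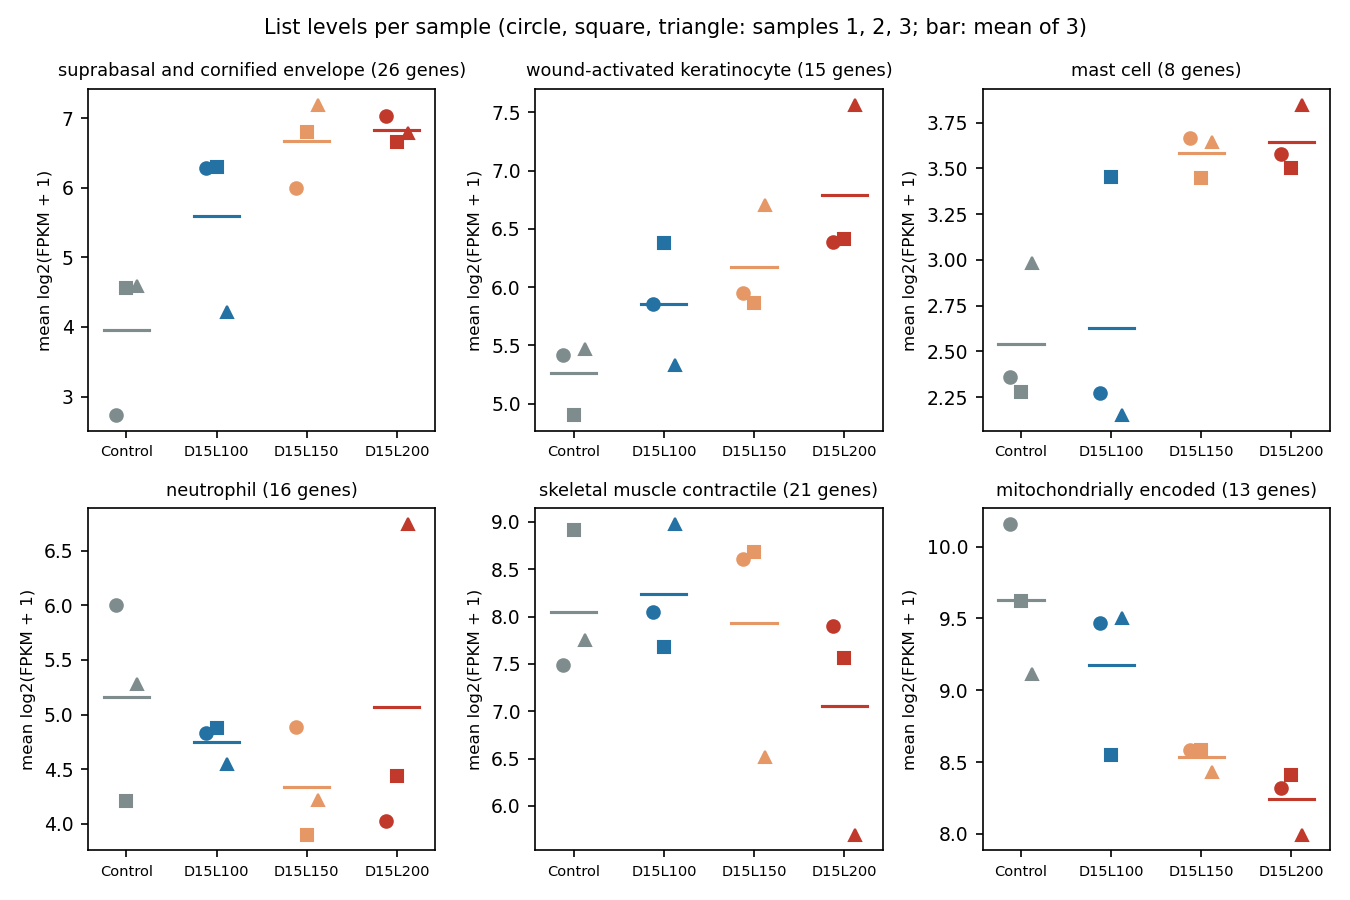
Level of 6 gene lists (mean log2(FPKM + 1) over the genes tested) in each sample of Control, D15L100, D15L150 and D15L200 flaps, with a bar at the mean of 3. Suprabasal and mast cell levels of D15L200 samples lie above all D15L100 samples, mitochondrially encoded levels lie below them, the neutrophil level is set apart by D15L200 sample 3, and the muscle levels overlap.

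Muscle genes were lower in D15L200 flaps, and the contractile list rested on the third samples. All 21 contractile genes tested had negative differences with a median of -1.17, yet 0 had an unadjusted p under 0.05 and 4 had no overlap. Over all genes tested 2.22% were lower at that p and 7.94% were lower without overlap. The same shares apply to the counts of lower genes in the lists that follow. The contractile level was 7.90, 7.56 and 5.70 in D15L200 flaps and 8.05, 7.68 and 8.98 in D15L100 flaps. Samples 1 and 2 of the groups were thus close, and the third samples were the lowest and the highest of the 6. Without them the median was -0.17, without D15L200 sample 3 alone it was -0.48, and without D15L100 sample 3 alone it was -0.76. Neb, nebulin, had 18.9, 19.2 and 7.93 FPKM in D15L200 flaps and 28.9, 25.2 and 51.3 FPKM in D15L100 flaps, and Ryr1, the calcium release channel of muscle, had 14.97, 16.1 and 8.08 FPKM in D15L200 flaps and 24.5, 20.3 and 44.1 FPKM in D15L100 flaps. Because the sample with most muscle RNA had least cornification RNA, the fit was repeated with each sample's contractile level as a covariate. The suprabasal median was then 0.94, the wound keratinocyte median 0.72 and the mast cell median 1.14. The neutrophil and inflammatory cytokine medians were -0.22 and -0.03. In this limma fit 315 genes had an unadjusted p under 0.05, in place of 678. That fit used all 18 samples, so the covariate's slope comes from variation within all the groups. In D15L200 and D15L100 flaps the contractile level was set apart in the third samples. The covariate cannot separate muscle content from other traits that vary with it. The part of muscle content in these differences was not tested.

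Regeneration and innervation genes of muscle were lower in D15L200 flaps by an amount that D15L100 samples 1 and 2 moved most, in opposite directions. The list of muscle regeneration and denervation genes had a median of -0.69, with all 18 differences negative and 3 at an unadjusted p under 0.05. The median was -0.37 without D15L100 sample 1 and -0.56 without the third samples. Myod1, the myogenic factor of activated satellite cells, had 9.71, 11.2 and 12.4 FPKM in D15L200 flaps and 31.7, 17.1 and 20.0 FPKM in D15L100 flaps, a difference of -0.94 ± 0.27 (SE; 95% interval -1.51 to -0.37). It was -1.09 without the third samples and -0.88 with the contractile level as a covariate. Myog, myogenin, had 25.9, 32.1 and 37.0 FPKM in D15L200 flaps and 88.3, 34.4 and 55.6 FPKM in D15L100 flaps, with overlap in D15L100 sample 2. Chrnb1, a subunit of the acetylcholine receptor of muscle, and Musk, the kinase that clusters it, differed by -0.75 ± 0.30 and -0.41 ± 0.20, each with overlap. Colq, the collagen tail that anchors acetylcholinesterase at the synapse, had 0.609, 0.483 and 0.695 FPKM in D15L200 flaps and 1.75, 0.853 and 1.46 FPKM in D15L100 flaps. Colq had no overlap, and D15L100 sample 1 was the highest for Myod1, Myog, Chrnb1 and Colq alike.

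Mitochondrial genes were lower in D15L200 flaps. All 13 mitochondrially encoded genes had negative differences, 11 at an unadjusted p under 0.05 and 8 without overlap, with a median of -0.87 and of -0.63 without the third samples. Transcripts of 1 genome share their template, so these 13 are not 13 separate observations. Taken as a percentage of each sample's summed FPKM, they made up 4.71%, 4.39% and 3.37% in D15L200 flaps and 8.09%, 5.18% and 9.09% in D15L100 flaps, means of 4.16% ± 0.70 and 7.45% ± 2.03 (SD, n = 3 each). The 3 D15L200 samples lay below the 3 D15L100 samples, and the difference of -3.30 percentage points had an exact two-sided permutation p of 0.1, the smallest that 3 against 3 allows. In D15L150 flaps the share was 5.60%, 5.58% and 4.41%, and in Control flaps 12.5%, 10.7% and 7.40%. COX2, a subunit of cytochrome c oxidase, had 235, 282 and 245 FPKM in D15L200 flaps and 637, 291 and 741 FPKM in D15L100 flaps. ND2, of complex I, had 1864, 1647 and 1239 FPKM in D15L200 flaps and 3101, 2726 and 5468 FPKM in D15L100 flaps, a difference of -1.20 ± 0.39. COX3 and ATP6 differed by -1.01 ± 0.31 and -1.06 ± 0.35. In COX2 and ATP6 the second D15L100 sample stood just above the D15L200 samples, and in COX3 it lay among them.

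Nuclear genes of oxidative phosphorylation showed a smaller difference of the same sign. All 28 were negative with a median of -0.32; 8 had no overlap and 1, Sdhc, a subunit of succinate dehydrogenase, had an unadjusted p under 0.05 (95.3, 89.2 and 81.2 FPKM in D15L200 flaps against 112, 103 and 132 FPKM in D15L100 flaps). Without D15L100 sample 3 the median was -0.20, without the third samples -0.14, and with the contractile level as a covariate -0.12, whereas that of the mitochondrially encoded genes was -0.77 with the covariate. Ndufb4b, a complex I subunit gene, had the smallest unadjusted p of the lower genes without overlap, predicted genes aside. It had 3.97, 4.54 and 4.24 FPKM in D15L200 flaps and 8.75, 6.47 and 9.13 FPKM in D15L100 flaps, a difference of -0.79 ± 0.19. It has a close relative, Ndufb4, that may share its fragments, so its counts are uncertain. Nfu1, which delivers iron-sulphur clusters to mitochondrial enzymes, had 14.7, 15.7 and 14.7 FPKM in D15L200 flaps and 21.9, 16.6 and 20.4 FPKM in D15L100 flaps. Tcaim, a mitochondrial protein known from T cells, differed by -0.73 ± 0.23.

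**Figure D4:**
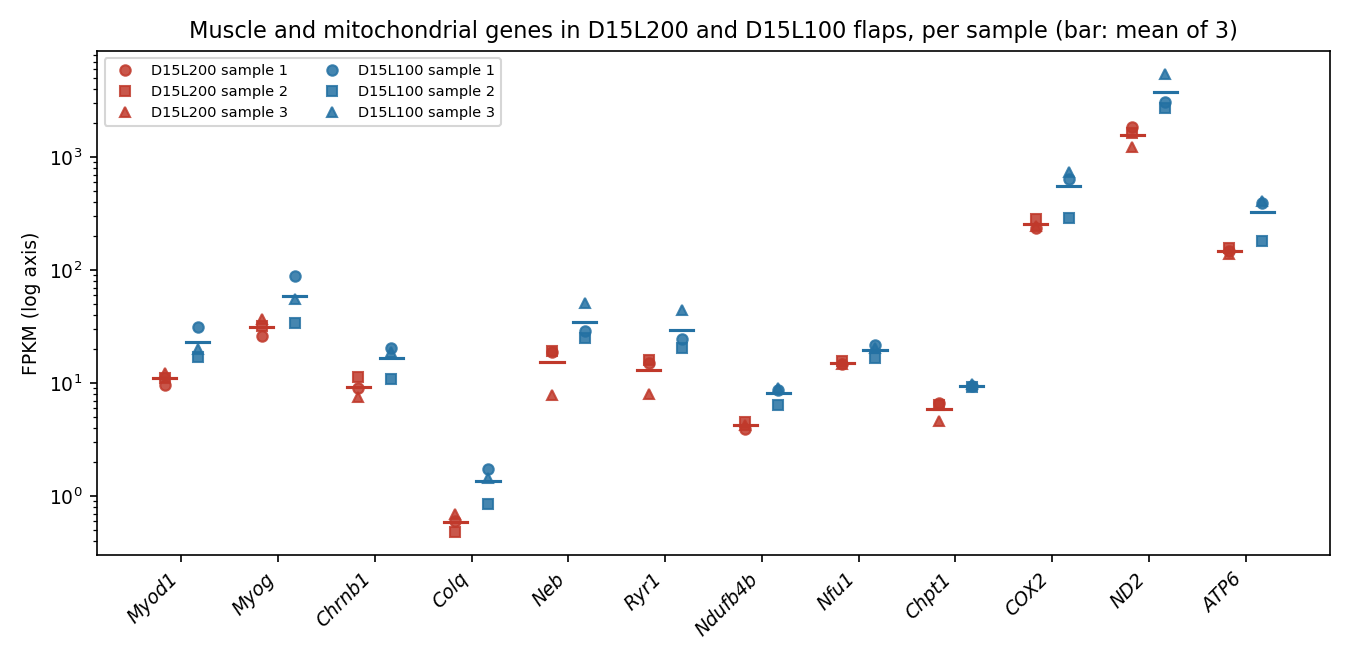
FPKM per sample (log axis) of 12 muscle and mitochondrial genes, D15L200 left and D15L100 right of each tick, with a bar at the mean of 3 samples. The groups do not overlap except for Myog and Chrnb1, and some of these genes were named on the condition of no overlap. D15L100 sample 2 is close to the D15L200 samples for Myog, COX2 and ATP6.

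The other genes named for the smallest unadjusted p among the lower ones without overlap had differences under 1 in size and varied roles. Genes with overlap, such as COX3, were left out by that condition. Chpt1, which makes phosphatidylcholine, had 6.69, 6.44 and 4.68 FPKM in D15L200 flaps and 9.41, 9.23 and 9.75 FPKM in D15L100 flaps. Exoc6, of the exocyst, differed by -0.46 ± 0.14, Rab33b, a Golgi GTPase, by -0.32 ± 0.10, Zbtb18, a zinc finger repressor, by -0.39 ± 0.12, and Ppp1r35, a centrosomal regulator of protein phosphatase 1, by -0.41 ± 0.13. Mgmt, the alkylguanine DNA repair protein, Morn2, Prrg1 and Tmem267 were at 0.599 to 4.03 FPKM in the 6 samples, with differences of -0.35 ± 0.11, -0.36 ± 0.11, -0.51 ± 0.14 and -0.85 ± 0.25. These are values near the lower limit of the genes tested.

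Vascular and stromal lists lay near or below 0. All 18 blood endothelial genes had negative differences with a median of -0.28, but 0 had an unadjusted p under 0.05 and 0 were without overlap; Tek, the angiopoietin receptor, had 5.28, 6.16 and 5.40 FPKM in D15L200 flaps and 9.83, 5.72 and 8.31 FPKM in D15L100 flaps. The endothelial median was -0.60 without D15L200 sample 3, -0.13 without D15L100 sample 3, -0.10 without D15L200 sample 2, -0.17 without D15L200 sample 1, -0.46 without D15L100 sample 2 and -0.43 without the third samples. The pericyte and smooth muscle list had a median of -0.42 over 14 genes, 5 of them without overlap, and of -0.28 without D15L100 sample 1. In it Myh11, smooth muscle myosin, had 6.12, 6.82 and 7.26 FPKM in D15L200 flaps and 12.7, 8.73 and 9.56 FPKM in D15L100 flaps, and Cnn1, calponin, differed by -0.59 ± 0.28. The interferon-stimulated list had a median of -0.28, with 22 of 23 differences negative and 5 without overlap, among them Gbp3 and Ifi44 at -0.54 ± 0.28 and -0.69 ± 0.39. That median was -0.02 without D15L200 sample 1, -0.12 without D15L100 sample 3 and -0.52 without D15L200 sample 3. The nerve and Schwann cell list had a median of -0.29 over 10 genes, which was 0.02 without D15L100 sample 1 and -0.46 without the third samples. Its level was 3.41 in D15L100 sample 1, against 2.72 and 2.65 in samples 2 and 3 of that group.

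Dermal lists had medians near 0 with all 6 samples, and their sign turned with the sample left out. The medians were 0.02 for fibroblast genes, 0.02 for collagens, 0.03 for macrophage genes and 0.01 for adipocyte genes, with no member at an unadjusted p under 0.05 in any of the 4. Without D15L200 sample 3 they were 0.25, 0.21, 0.12 and 0.47. Without D15L100 sample 3 they were -0.10, -0.02, -0.12 and -0.39. The lowest and highest with any 1 sample left out were -0.14 and 0.25 for fibroblast genes, -0.14 and 0.21 for collagens, and -0.23 and 0.17 for macrophage genes. Col8a1, a short-chain collagen of vessels, had the smallest unadjusted p of the collagens, with 14.04, 12.5 and 8.73 FPKM in D15L200 flaps and 18.2, 19.1 and 20.2 FPKM in D15L100 flaps. Loxl4, a collagen crosslinking oxidase, differed by 0.51 ± 0.23 with overlap. Col1a1, chosen after its values were seen, had 2984, 2872 and 1444 FPKM in D15L200 flaps and 2499.7, 2393 and 1965 FPKM in D15L100 flaps, and its samples overlapped. Adipocyte levels were 5.17, 5.03 and 3.70 in D15L200 flaps and 5.24, 4.93 and 3.70 in D15L100 flaps, the third sample of each group being low by a like amount.

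**Figure D5:**
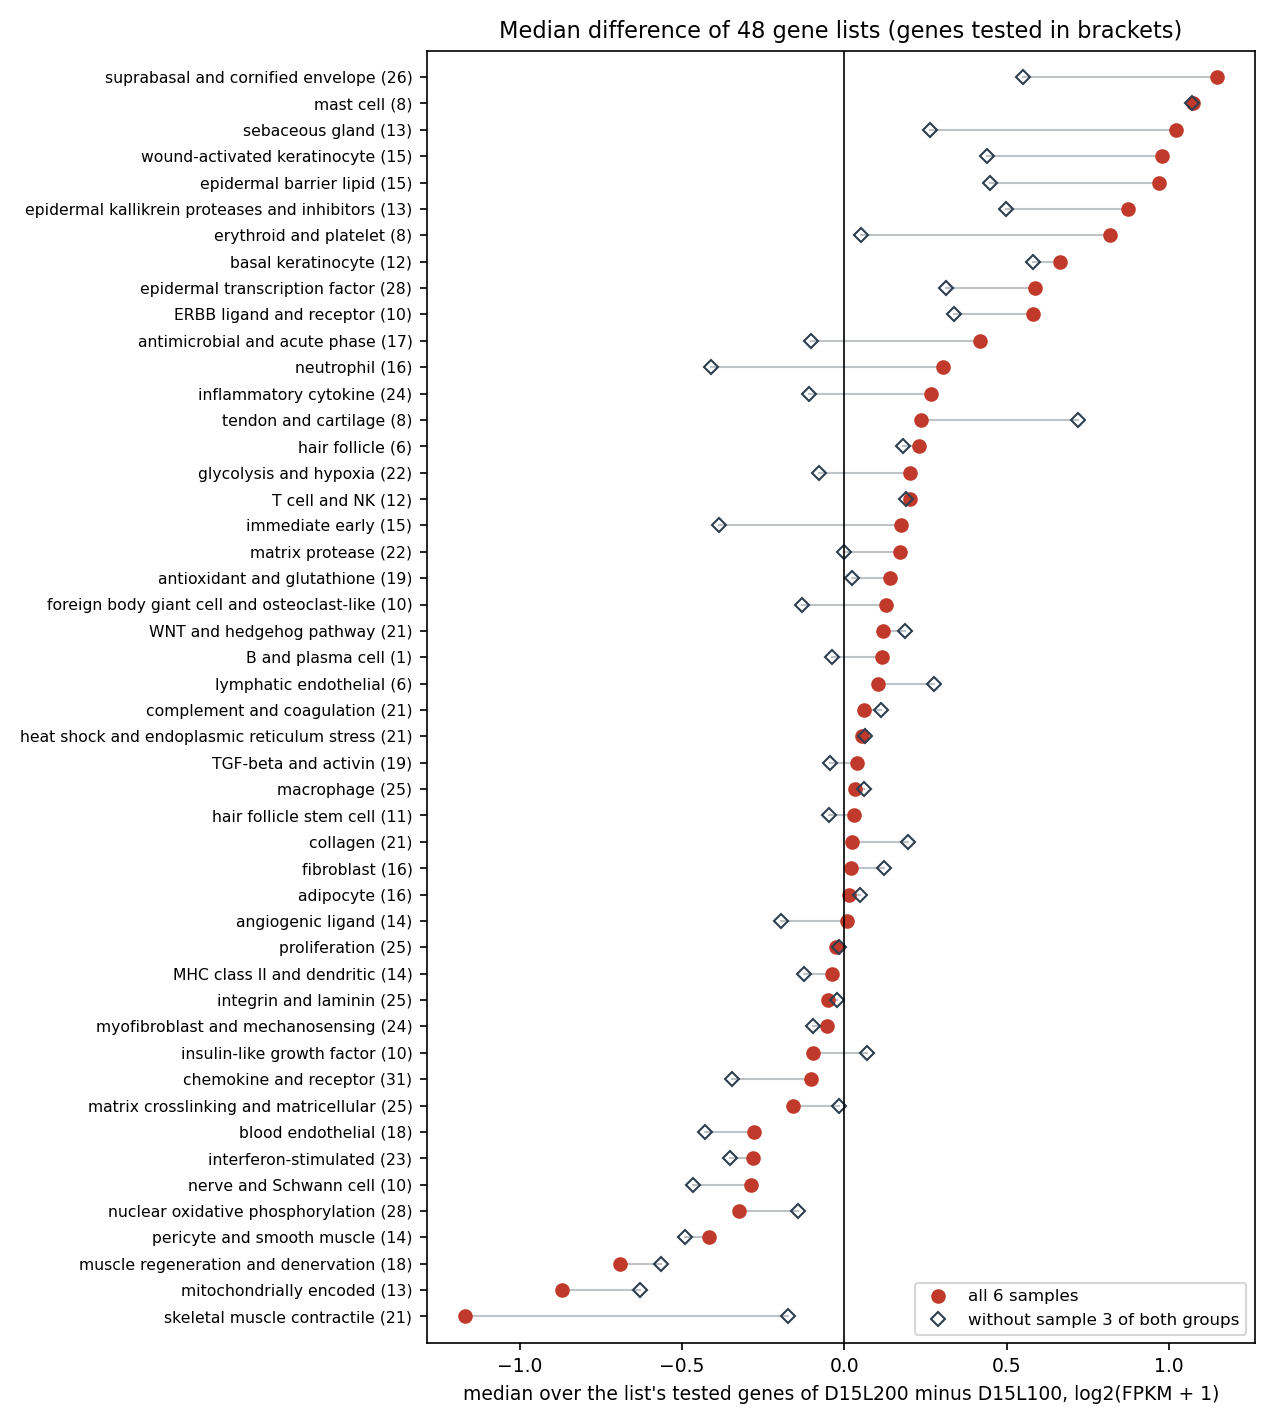
Median difference, D15L200 minus D15L100 on the log2(FPKM + 1) scale, of 48 gene lists, with all 6 samples (filled) and without the third samples (open). Epidermal and mast cell lists lie at the top with medians up to 1.15 and muscle and mitochondrial lists at the bottom with medians down to -1.17; the open symbols lie closer to 0 for the cornification and contractile lists and unmoved for mast cells.

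Red cell and platelet genes had a median of 0.82 over 8 genes, none of them without overlap, and of 0.05 without the third samples. With 1 sample left out it ran between 0.29, without D15L200 sample 3, and 1.29, without D15L100 sample 2. Over the 48 lists 33 medians were above 0 and 15 below. The list level of all 3 D15L200 samples was above that of all 3 D15L100 samples for 5 lists (wound keratinocyte, suprabasal, kallikrein, barrier lipid and mast cell) and below for 2 (mitochondrially encoded, and myofibroblast and mechanosensing). Of single genes, 4.48% lay above and 7.94% below without overlap. The wound keratinocyte, suprabasal, kallikrein and barrier lipid levels were all lowest in D15L100 sample 3, so these lists are not separate observations. The myofibroblast and mechanosensing list had a median of only -0.05, between -0.17 and -0.02 with 1 sample left out, with levels of 4.98, 5.05 and 5.10 in D15L200 flaps and 5.22, 5.15 and 5.34 in D15L100 flaps.

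D15L150 flaps were used to see where the middle L number lay. For 589 of the 678 genes at unadjusted p under 0.05 (86.9%) the D15L150 mean lay between the means of the 2 groups, against 38.8% of all genes tested. The 678 were chosen for a wide gap between the groups, which makes a mean in between more likely, so the share is a description. For 85 of them D15L150 lay beyond D15L200 and for 4 beyond D15L100. In order of the L number, the suprabasal level averaged 5.60 ± 1.20, 6.67 ± 0.61 and 6.83 ± 0.19 in D15L100, D15L150 and D15L200 flaps (SD, n = 3 each). The mast cell level averaged 2.63 ± 0.72, 3.58 ± 0.12 and 3.64 ± 0.18, and the mitochondrially encoded level 9.17 ± 0.54, 8.53 ± 0.09 and 8.24 ± 0.22, in the same order. In these 3 lists D15L150 lay nearer to D15L200 than to D15L100. The mean level of D15L150 lay between those of the 2 groups in 17 of the 48 lists. The muscle regeneration level was not among them: it averaged 4.53 ± 0.55, 3.83 ± 0.37 and 3.86 ± 0.22 in D15L100, D15L150 and D15L200 flaps, and the sebaceous and the pericyte lists were not either. The wound keratinocyte level averaged 5.86 ± 0.52, 6.17 ± 0.46 and 6.79 ± 0.68, with D15L150 nearer to D15L100.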

How the data were processed

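Bulk RNA-seq of mouse skin flaps was deposited by the authors as 1 table of FPKM values for 27743 genes in 18 samples. Per the submitters' processing notes, the tools were HISAT2, HTSeq, fastp, DESeq2 and R 3.2.0 and the build was mm10; no roles are given. In every gene the FPKM were whole multiples (tolerance 0.001) of the value of 1 fragment, which gave depths of 28422344 to 35327357 fragments.

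From these values log2(FPKM + 1) was taken, genes with FPKM of at least 1 in at least 3 samples were kept (13078, with 14665 removed), and limma 3.58.1 in R 4.3.3 was fitted to all 18 samples with 1 mean per group, a mean-variance trend, robust variances and Benjamini-Hochberg adjustment. The scripts were tested on simulated data. The mitochondrial share was tested by exact permutation. The comparison and the 48 gene lists (853 genes, 760 tested) were chosen with earlier results of these data known. Genes eligible to be named were the 15 in each direction with the smallest unadjusted p among those without overlap (none was called), and the 4 in each list with the smallest unadjusted p; the text gives some of these, picked for their roles with their values known, and no predicted gene among them. Any other gene is marked as chosen later, from its values. Eligible genes left out are not reported here. The 19 alternatives covered pseudocount, filter, scaling, model, covariates and left-out samples.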

Additional observations from a re-analysis of the deposited data

How the results depend on the processing

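The test called 0 genes in the reported fit and under 16 of the 19 alternatives. With no filter on low values it called 2, Gm33187 and Or52n4, both lower and at very low values, named after their values were seen; with only the D15L200 and D15L100 samples in the fit it called 1, Lce3e (adjusted p = 0.0346 in limma); leaving out 1 sample at a time gave 0 to 1, the 1 being Slc6a20a without D15L100 sample 2 (adjusted p = 0.0382). Genes at unadjusted p under 0.05 numbered 678 in the reported fit, 177 without D15L100 sample 3, 389 without D15L200 sample 3, 82 without both (an alternative chosen after seeing the data), 1609 without D15L100 sample 2, 1238 with no filter, 315 with the contractile level as a covariate and 672 with voom on recovered fragments. With a replicate block the fit called 0 genes, with 557 at unadjusted p under 0.05. The labels give samples with the same number nothing else in common. Their deviations from the group means correlated at 0.154, 0.0287 and 0.127, and those of differently numbered samples at -0.194 to 0.0889. These values do not show whether the samples were paired. Of the genes named in the results, 79 were followed through the alternatives, and none of these changed sign. Kit, S100a8, Il1b and Col1a1 were not among them. Many of the 79 were named because their samples did not overlap, so leaving samples out could not turn their sign. The mitochondrial difference ran from -4.436 to -2.478 percentage points with 1 sample left out. Of 909 list medians under the alternatives, 13 moved by more than the spread between samples. That limit is wide, so the count does not measure stability. The sebaceous median of 0.12 without D15L100 sample 3, in place of 1.02, was not counted as moved. Nor was the neutrophil median of -0.39 without D15L200 sample 3, in place of 0.30. Alternatives that altered only the variances, the replicate block or the groups in the fit could not move a median. With 3 samples a group the standard error of a gene's difference was 0.172 at the median and 0.432 at the upper decile of genes, which sets the size of difference that could be called.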
